A study of Rattus norvegicus with 18 samples.

Results

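A set of 9 genes, regulators of plasmin and clotting and receptors that thrombin and related proteases cut, was followed in the proximal stump of the cut rat sciatic nerve. They were taken by name from the array, as the probes that the scanner files or a RefSeq accession assign to Plat, Plau, Plaur, F3, Tfpi, Thbd, F2r, F2rl1 or F2rl2. All 9 genes were found, on 10 of the 41012 probes of the array (35279 gene names), with 2 probes for Tfpi and 1 for each of the others. Of these, 8 genes with 9 probes were bright enough to be tested, out of 27199 gene names tested in all, and F2r was not.

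The tissue came from adult male Sprague-Dawley rats of 180-220 g, in which 1 cm of the left sciatic nerve was resected under anaesthesia. A 0.5 cm proximal piece, on the side of the spinal cord, was collected at once (0 h), after 0.5 h or 1 h, or later, after 3 h, 6 h or 9 h. Every group, the 0 h controls included, therefore carried the resection and the anaesthesia, with no other treatment. RNA of each time-point was hybridised to 3 Agilent arrays of 1 colour, 18 in all. The labels give 6 rats per group, for 3 arrays. Neither the labels nor the methods say whether an array held 1 rat or a pool. The P-values therefore measure the spread between arrays of 1 time-point, which may be technical in part.

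Plasmin is the protease that dissolves fibrin, and it is made from plasminogen by tissue-type (Plat) or urokinase-type (Plau) plasminogen activator, the second of which is held at the cell surface by its receptor Plaur. Clotting in a wound starts when tissue factor (F3) meets factor VIIa from the blood, a complex that the inhibitor Tfpi blocks, and ends with thrombin, which thrombomodulin (Thbd) on endothelium turns from a clotting into an anticoagulant enzyme. Thrombin and related proteases also signal to cells by cutting the protease-activated receptors, of which F2r (PAR1), F2rl1 (PAR2) and F2rl2 (PAR3) are members here, and in peripheral nerve the plasmin system is known for clearing fibrin after injury.

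All values are log2 processed signals relative to the 75th percentile of the array, so that 0 marks a probe at that percentile and 1 unit is a doubling. They compare time-points for 1 probe and say nothing of which gene has more RNA. A probe was called when its unadjusted P-value lay below 0.01 and its Benjamini-Hochberg adjusted P-value, over all 32111 probes tested, below 0.05 in limma's fit. On an array 65.9% to 93.5% of the spots were well above background, with array 1 of 6 h at the top and the other 17 arrays at up to 86.4%, and no spot was saturated. A first scan day held all arrays of 0 h and 0.5 h, another those of 1 h, 3 h and 6 h with 2 of 9 h, and array 3 of 9 h had its own. Scan day and time-point therefore cannot be told apart in the contrasts of 1 h to 9 h with 0 h, whereas contrasts among 1 h, 3 h and 6 h lie within a day. Each slide held arrays of 1 time-point only, so that slide and time-point cannot be told apart in any contrast. All 10 listed Schwann cell markers were well above background on all 18 arrays.

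The probes have 60 bases, and the first 30 are given for genes whose changes the results turn on, in the orientation of the deposited files, with positions on rn4 as the files state them. The gene was assigned by the gene name or transcript accession of the files, and exon borders were not used here. The probe of Plaur lies at chr1:79713035-79713094 and that of Plau at chr15:3680711-3680770. The F2rl2 probe lies at chr2:26078287-26078346, close to those of F2rl1 at chr2:25887867-25887926 and F2r at chr2:25986221-25986280, so that all 3 receptors are neighbours on chromosome 2. The probe of F3 lies at chr2:218382225-218382283 and that of Thbd at chr3:137158969-137159028. The 2 probes of Tfpi lie apart, at chr3:67654531-67654590 (the brighter) and chr3:67662577-67662636 (the dimmer).
Plaur probe, first 30 bases: ctacagaacactgtattgaagtggtgacgc
Plau probe, first 30 bases: gtctacacgagggtctcatacttcctgaac
F2rl2 probe, first 30 bases: caatggcgagatcatcttggagaacaagga
F2rl1 probe, first 30 bases: gaaatccagctcttactcctccagctcaac
F3 probe, first 30 bases: ggacttttccaacagttgtacttttcgcaa
Thbd probe, first 30 bases: tggagtttagctagaacacaagcaaagcct
Tfpi brighter probe, first 30 bases: tacattagtttcactaaatattcctataag
Tfpi dimmer probe, first 30 bases: aaatctatgctatgctaagtcataaatctc

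Over the 6 time-points 7 of the 8 tested genes were called in the F-test, where 36.3% of all gene names tested were called. They were Plaur, F2rl2, Plat, F3, Thbd, Plau and, by its dimmer probe, Tfpi, and the gene not called was F2rl1 (limma adjusted P = 0.0543), which was called without array 2 or 3 of 9 h (adjusted P = 0.029 and 0.0261). The calls of Plaur, F2rl2, Plat and F3 held without any 1 array. With the scan day as a block, where the F-test covers changes within a day alone, 5 genes were called, and Plat (limma adjusted P = 0.0661) and Plau (adjusted P = 0.185) were not. That of Plau was lost without array 2 or 3 of 0 h, 3 of 0.5 h, 2 of 1 h, 2 or 3 of 3 h, any of 6 h or 1 of 9 h (adjusted P = 0.0332 to 0.102). That of Thbd was lost without array 2 or 3 of 3 h or 1 or 2 of 9 h (adjusted P = 0.0418 to 0.0522), and that of Tfpi without array 3 of 0 h or 1 or 2 of 6 h or 9 h (adjusted P = 0.032 to 0.046). Without array 1 of 9 h 4 genes were called. With normexp background correction the F-test calls of Plaur, Plat and F3 held. Those of F2rl2 (limma adjusted P = 0.111), Plau (adjusted P = 0.0926), Thbd (adjusted P = 0.376) and the dimmer Tfpi probe (adjusted P = 0.236) were lost. The largest changes were those of the urokinase receptor Plaur and of the thrombin receptor F2rl2, both of which were higher from 3 h on, whereas the activators Plau and Plat, tissue factor, thrombomodulin and Tfpi moved by less than 1 log2 unit.

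**Figure D1:**
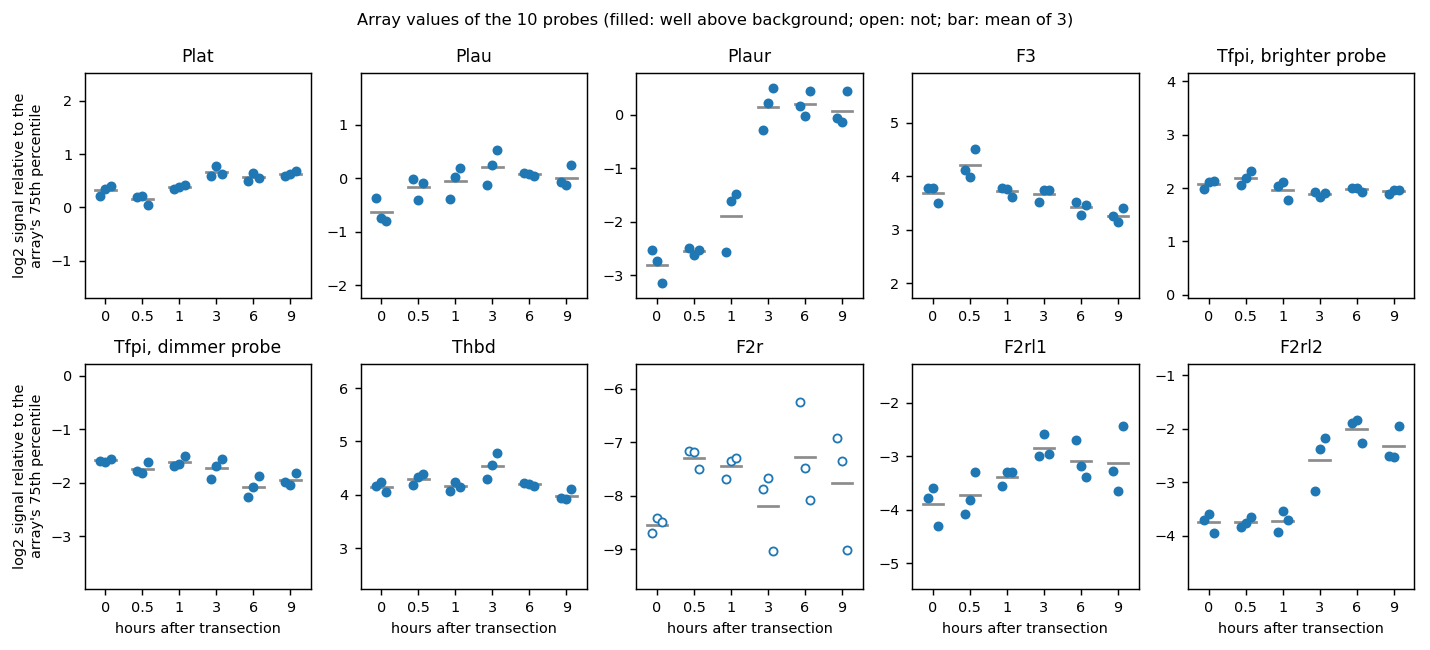
Log2 signal relative to the array's 75th percentile (vertical axis) of the 10 probes on the 18 arrays by hours after transection, with 1 point per array in the order of the replicate numbers, filled if well above background, and a bar at the mean of 3 arrays. Plaur steps up between 1 h and 3 h and F2rl2 between 1 h and 6 h, and every F2r point is open.

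Plaur, the cell-surface receptor that gathers urokinase, was at -2.53, -2.74 and -3.16 on the arrays of 0 h and at -2.49, -2.63 and -2.54 at 0.5 h. At 1 h its 3 arrays gave -2.58, -1.61 and -1.49, the first within the range of 0 h and the other two above it. The arrays of 3 h gave -0.28, 0.22 and 0.51, those of 6 h 0.17, -0.02 and 0.45, and those of 9 h -0.07, -0.13 and 0.44. All 9 arrays from 3 h to 9 h thus lay above all 9 arrays of the earlier time-points. Plaur rose by 2.96 ± 0.28 log2 units at 3 h (SE, 3 arrays against 3, limma adjusted P = 1.83e-05), by 3.01 at 6 h (adjusted P = 6.98e-06) and, at 9 h, by 2.89 (adjusted P = 7.94e-06), 7.41-fold to 8.07-fold. Of all tested probes 0.445%, 0.698% and 0.856% differed by as much from 0 h at the respective times. These calls held without any 1 of the 18 arrays, with changes of 2.71 to 3.18, and with normexp background correction (2.52 to 2.62). At 1 h the change of 0.92 ± 0.28 was not called (limma adjusted P = 0.0709), and without array 1 of 1 h it was 1.26 and called (adjusted P = 0.0146).

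Plau, the urokinase that this receptor binds, was at -0.38, -0.74 and -0.80 at 0 h and at -0.01, -0.41 and -0.09 at 0.5 h. It reached -0.39, 0.03 and 0.19 at 1 h and -0.12, 0.24 and 0.53 at 3 h. The arrays of 6 h gave 0.10, 0.09 and 0.04 and those of 9 h -0.08, -0.13 and 0.24. From 3 h on no array overlapped with 0 h, while array 2 of 0.5 h and array 1 of 1 h lay below the highest array of 0 h. Plau rose by 0.86 ± 0.19 log2 units at 3 h, 1.81-fold (limma adjusted P = 0.00863), by 0.71 at 6 h (adjusted P = 0.0126) and, at 9 h, by 0.65 (adjusted P = 0.0165). The call at 3 h held without any 1 array, that at 6 h was lost without array 3 of 0 h (0.63, adjusted P = 0.0513), and that at 9 h without array 2 or 3 of 0 h or array 3 of 9 h (0.54 to 0.60, adjusted P = 0.0566 to 0.0738). With normexp the F-test no longer called Plau (adjusted P = 0.0926). Its contrasts of 3 h, 6 h and 9 h with 0 h stayed called with normexp (0.77, 0.69 and 0.69, limma adjusted P = 0.0431, 0.0484 and 0.0361).

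Plat, the tissue-type activator, is printed on 10 spots of each array, whose SD within an array was 0.026 to 0.12 log2 units. Its arrays gave 0.22, 0.34 and 0.40 at 0 h, then 0.20, 0.21 and 0.05 after 0.5 h and 0.34, 0.39 and 0.43 after 1 h. The arrays of 3 h gave 0.59, 0.77 and 0.63, those of 6 h 0.49, 0.65 and 0.56, and those of 9 h 0.59, 0.63 and 0.68. All 9 late arrays were above all 9 early ones, by a small step. Plat rose by 0.34 ± 0.08 log2 units at 3 h (limma adjusted P = 0.0138), by 0.25 at 6 h (adjusted P = 0.039) and, at 9 h, by 0.31 (adjusted P = 0.00961). Changes of that size or larger were seen in 39.5% of all tested probes at 3 h and in 60.8% at 6 h. The call at 6 h held only without array 3 of 0 h, 0.5 h or 1 h, array 2 of 3 h or array 1 of 6 h, and was lost without any of the other 13 arrays (0.20 to 0.26, adjusted P = 0.0409 to 0.13). That at 3 h was lost without array 1 of 0 h or array 2 of 3 h (0.29 in both, adjusted P = 0.0506 and 0.0719), and that at 9 h without array 1 of 0 h (0.26, adjusted P = 0.0383). All 3 calls were lost with normexp (0.24 to 0.29, limma adjusted P = 0.091 to 0.2) and with scaling to the median (0.10 to 0.25, adjusted P = 0.215 to 0.571).

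F3, tissue factor, was at 3.78, 3.77 and 3.49 at 0 h and at 4.12, 3.98 and 4.52 at 0.5 h, so that all 3 arrays of 0.5 h were above all 3 of 0 h. It was at 3.79, 3.77 and 3.62 at 1 h and at 3.53, 3.75 and 3.75 at 3 h, within or near the range of 0 h. It was at 3.52, 3.28 and 3.46 at 6 h and lowest at 9 h, with 3.25, 3.14 and 3.41, all below 0 h. F3 rose by 0.53 ± 0.14 log2 units at 0.5 h, 1.44-fold (limma adjusted P = 0.0394), and was the 1 member called at 0.5 h, where 6.61% of all gene names tested were called and 4.7% were higher. This contrast lies within a scan day. F3 fell by 0.42 at 9 h (adjusted P = 0.0295). The call at 0.5 h was lost without array 1, 2 or 3 of 0 h, 1 or 3 of 0.5 h, 1 or 2 of 1 h, 2 of 3 h, 3 of 6 h or 1 of 9 h (0.37 to 0.57, adjusted P = 0.0513 to 0.155), and that at 9 h held without array 3 of 0 h, 2 or 3 of 0.5 h, 3 of 1 h, 1 of 3 h, 2 of 6 h or 3 of 9 h and was lost without any of the other 11 (-0.42 to -0.36, adjusted P = 0.0331 to 0.0948). Both calls were lost with normexp (0.48 and -0.46, adjusted P = 0.475 and 0.128), the first also with scaling to the median (0.37, adjusted P = 0.0709) and the second with quantile normalization (-0.31, adjusted P = 0.0982).

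Tfpi, the inhibitor of the tissue factor complex, has 2 tested probes. The brighter probe gave 1.99, 2.11 and 2.12 at 0 h and between 1.78 and 2.32 on the other 15 arrays, and no contrast of it was called (F-test, limma adjusted P = 0.113). The dimmer probe gave -1.59, -1.61 and -1.55 on the arrays of 0 h, -2.26, -2.09 and -1.88 on those of 6 h and -1.99, -2.04 and -1.82 on those of 9 h, while its 9 arrays of 0.5 h to 3 h lay between -1.92 and -1.50. Its arrays of 6 h and 9 h were below all arrays of 0 h. It fell by 0.50 at 6 h (SE 0.12, limma adjusted P = 0.00652) and, at 9 h, by 0.37 (adjusted P = 0.0254), the second of which was lost without array 1, 2 or 3 of 0 h or array 1 or 2 of 9 h (-0.38 to -0.32, adjusted P = 0.0518 to 0.0792). The dimmer minus the brighter probe, compared after their values were seen, was -3.66 ± 0.07 at 0 h (SD, n = 3), and -3.93 ± 0.08, -3.58 ± 0.26, -3.61 ± 0.22, -4.05 ± 0.22 and -3.89 ± 0.11 from 0.5 h to 9 h in order of time. With normexp neither fall was called (-0.44 and -0.32, limma adjusted P = 0.37 and 0.54). The 2-sided exact permutation test of that difference against 0 h gave P = 0.1 at 0.5 h, 6 h and 9 h and P = 0.9 and 0.8 at 1 h and 3 h. As 0.1 is the smallest value that 3 against 3 arrays allow, this test cannot decide whether the probes moved differently. The difference lay between -3.72 and -3.58 on the arrays of 0 h. It was below that range on all arrays of 0.5 h (-4.02 to -3.85), 6 h (-4.26 to -3.815) and 9 h (-4.00 to -3.78).

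Thbd, the thrombin receptor of endothelium, was at 4.17, 4.24 and 4.05 at 0 h, at 4.18, 4.34 and 4.39 at 0.5 h and at 4.08, 4.25 and 4.14 at 1 h. It was at 4.30, 4.56 and 4.78 at 3 h, all above 0 h, then at 4.23, 4.21 and 4.17 at 6 h and 3.93, 3.92 and 4.11 at 9 h. Thbd rose by 0.39 ± 0.11 log2 units at 3 h (limma adjusted P = 0.0323), which was lost without array 1, 2 or 3 of 0 h or 2 or 3 of 3 h (0.28 to 0.44, adjusted P = 0.0542 to 0.126), with normexp (0.21, adjusted P = 0.338) and with scaling to the median (0.30, adjusted P = 0.106). At 6 h and 9 h it differed from 0 h by 0.05 and -0.17 and was not called (adjusted P = 0.765 and 0.265).

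Of the receptors, F2rl2 (PAR3), which binds thrombin and is known as a helper of other receptors of the family, was flat at first and then rose. Its arrays of 0 h gave -3.70, -3.59 and -3.94, those of 0.5 h -3.84, -3.76 and -3.65, and those of 1 h -3.93, -3.54 and -3.70. The values then were -3.17, -2.38 and -2.17 on the arrays of 3 h, -1.88, -1.83 and -2.27 on those of 6 h, and -2.51, -2.53 and -1.94 on those of 9 h. All 9 late arrays were above all 9 early ones, and the arrays of 3 h were the most spread. F2rl2 rose by 1.17 ± 0.23 log2 units at 3 h (limma adjusted P = 0.00466), by 1.75 at 6 h, 3.36-fold (adjusted P = 0.00014), and, at 9 h, by 1.42 (adjusted P = 0.000472). These 3 calls held without any 1 of the 18 arrays, with changes of 0.97 to 1.89, and were lost with normexp, at 1.304, 1.279 and 0.963 in order of time (limma adjusted P = 0.105, 0.0969 and 0.198). As large a change against 0 h was seen in 5.27%, 2.87% and 7.2% of all tested probes at the respective times.

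F2rl1 (PAR2), the receptor that trypsin-like proteases cut, was at -3.78, -3.59 and -4.31 at 0 h and at -4.09, -3.83 and -3.29 at 0.5 h. Its arrays of 1 h gave -3.55, -3.30 and -3.30, those of 3 h -2.998, -2.58 and -2.97, those of 6 h -2.70, -3.18 and -3.39, and those of 9 h -3.27, -3.65 and -2.45. Those of 1 h, 3 h and 6 h were above all of 0 h, and those of 9 h overlapped with 0 h. F2rl1 rose by 1.05 ± 0.30 log2 units at 3 h (limma adjusted P = 0.0312), and its changes of 0.81 at 6 h and 0.77 at 9 h were not called (adjusted P = 0.0574 and 0.0551). The call at 3 h was lost without array 1 or 3 of 0 h or 1, 2 or 3 of 3 h (0.84 to 1.12, adjusted P = 0.05 to 0.123) or with normexp (1.18, adjusted P = 0.144), and without array 2 of 9 h the change at 9 h was called (1.04, adjusted P = 0.0206), as was that at 6 h without array 3 of 9 h (0.81, adjusted P = 0.0244). F2r (PAR1), the main thrombin receptor, was not well above background on any of the 18 arrays, at -9.03 to -6.25, so that no change is given for it.

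**Figure D2:**
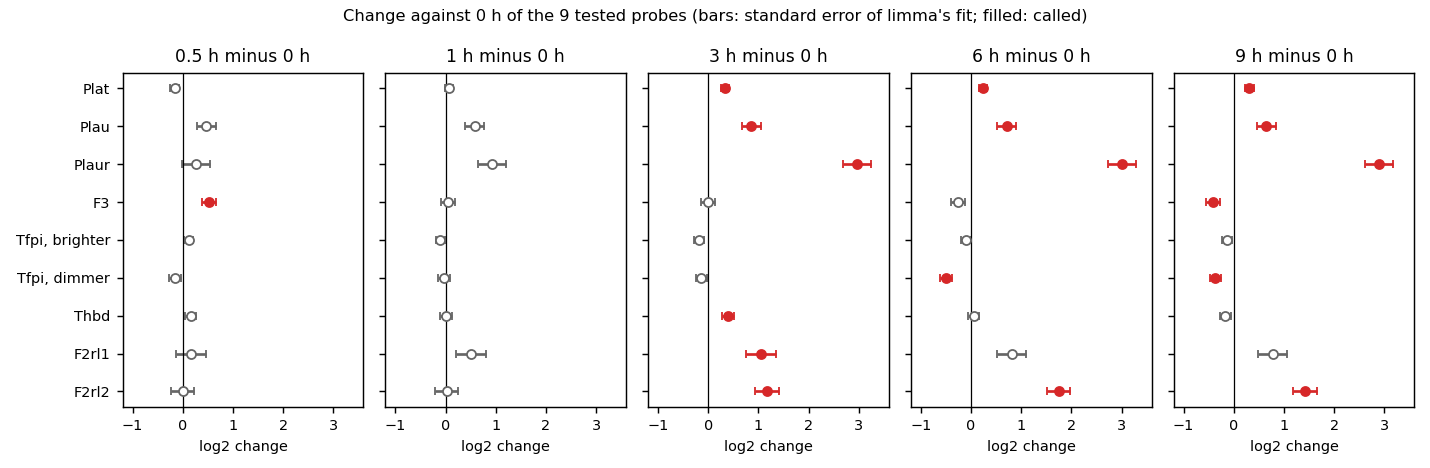
Change against 0 h in log2 units (horizontal axis) of the 9 tested probes at each time-point, with bars for the standard error of limma's fit and filled red points for called changes. In order of time, 1, 0, 6, 5 and 6 changes are called.

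Set out by time, 1 of the 8 tested genes was called at 0.5 h and none at 1 h, where 6.09% of all gene names tested were called. At 1 h the smallest adjusted P-values of limma's contrasts were those of Plaur (0.92, adjusted P = 0.0709) and Plau (0.58, adjusted P = 0.0862), both with an unadjusted P-value below 0.05, and no other member had one. At 3 h 6 of 8 were called, all higher, beside 14.8% of all gene names in either direction and 7.7% for higher ones. At 6 h 5 of 8 were called, 4 higher and 1 lower, beside 26.4% of all gene names, 13.1% higher and 13.5% lower. At 9 h 6 of 8 were called, 4 higher (Plaur, F2rl2, Plau, Plat) and 2 lower (F3, Tfpi), beside 32.7%, 17% higher and 15.9% lower. Every tested member probe was well above background on all 18 arrays. Among gene names with such probes the shares called in either direction were larger, at 19.6% at 3 h, 31.2% at 6 h and 37.6% at 9 h. With all 3 arrays on 1 side of the 3 of 0 h stood 3, 1, 7, 6 and 6 of the 8 genes in order of time, beside 36%, 33.3%, 41%, 48.7% and 56% of all gene names. In order of time, the median change of the 8 genes was 0.16, 0.05, 0.63, 0.48 and 0.48, while the median over all tested probes stayed between 0.00 and 0.02. Scaling to the median of each array would move the latter to between -0.16 and -0.09. All these contrasts share the 3 arrays of 0 h. The count at 3 h was 3 without array 1 of 0 h or array 2 of 3 h, and that at 9 h was 3 without array 1 or 2 of 0 h.

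Between neighbouring later time-points, members were called from 1 h to 3 h only. From 1 h to 3 h, which lie within a scan day, 4 of 8 genes were called, all higher, beside 11% of all gene names tested and 6.07% for higher ones. Plaur rose by 2.04 ± 0.28 (limma adjusted P = 0.000553), F2rl2 by 1.15 ± 0.23 (adjusted P = 0.00678), Thbd by 0.39 ± 0.11 (adjusted P = 0.0417) and Plat by 0.28 ± 0.08 (adjusted P = 0.0463). The first 2 held without any 1 array, but with normexp only Plaur was called. The call of Thbd was lost without 12 of the 18 arrays in turn (0.27 to 0.39, adjusted P up to 0.171) and that of Plat without any but array 1 of 0 h (0.22 to 0.31, adjusted P up to 0.176), and 2 genes were called without 11 of the arrays. From 3 h to 6 h none of the 8 was called, beside 5.86% of all gene names, although F2rl2 (0.58), Thbd (-0.34) and the dimmer Tfpi probe (-0.36) had unadjusted P-values below 0.05. Without array 1 of 3 h the fall of Thbd from 3 h to 6 h was called (-0.47, adjusted P = 0.0496). From 6 h to 9 h none was called and none had an unadjusted P-value below 0.05, beside 0.0147% of all gene names, that is 4 names.

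Against 1 h, 3 of 8 genes were called at 6 h, beside 25.7% of all gene names tested, 12.5% higher and 13.2% lower. These were Plaur (2.09, limma adjusted P = 0.000163), F2rl2 (1.73, adjusted P = 0.000175) and the dimmer Tfpi probe, which fell by 0.47 (adjusted P = 0.00971), and this contrast too lies within a scan day. At 9 h against 1 h 4 of 8 were called, beside 26.8% of all gene names, 12.5% higher and 14.4% lower, namely Plaur (1.97), F2rl2 (1.40) and Plat (0.25), which were higher, and F3, which fell by 0.46 (adjusted P = 0.0224). The count was 2 without array 1 or 2 of 1 h or array 1 or 2 of 9 h, each of which ended the call of F3 (-0.45 to -0.40, adjusted P = 0.0612 to 0.079), and that of Plat was lost without any of 13 arrays (0.22 to 0.27, adjusted P up to 0.11). The dimmer Tfpi probe (-0.34, adjusted P = 0.0449) was called without array 1 or 3 of 3 h, 1 or 3 of 6 h or 3 of 9 h (adjusted P = 0.0337 to 0.0401). With normexp Plaur alone was called in both contrasts (1.71 and 1.64, limma adjusted P = 0.00281 and 0.0026), F2rl2 was at 0.72 and 0.40 (adjusted P = 0.315 and 0.488), the dimmer Tfpi probe at -0.61 at 6 h (adjusted P = 0.147), and F3 and Plat at -0.32 and 0.22 at 9 h (adjusted P = 0.273 and 0.198). With the scan day as a block Plaur, F2rl2, F3 and the dimmer Tfpi probe were called and Plat was not (0.22, limma adjusted P = 0.109).

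Of the other genes of the pathway a list of 39 was drawn up by role, all of them on the array. Of these, 26 were bright enough to be tested and 15 were called in the F-test, beside 36.3% of all gene names. Plasminogen itself (Plg), prothrombin (F2) and factors VII, IX and XI, which the liver makes, were on the array but too dim to be tested. At 3 h 8 of the 26 were higher and 2 lower, beside 14.8% of all gene names in either direction and 7.7% for higher ones. At 6 h 10 were higher and 2 lower, beside 26.4% and 13.1%, and at 9 h 13 higher and 1 lower, beside 32.7% and 17%. Of the genes counted as higher, Serpinb2, Fgb, Fgg, Kng1 and F2rl3 entered the test only through later times at which they were high, so that their calls support nothing about the list. With the test limited to probes that cleared the background on all arrays, 6 of 18 pathway genes were called at 3 h, 8 at 6 h and 9 at 9 h, beside 19.6%, 31.2% and 37.6% of all gene names under that filter. All 26 tested had a median change of 0.25, 0.16 and 0.40 log2 units at these times, the dim ones included. The counts were 5 at 3 h without array 2 or 3 of 0 h and 6 without array 2 of 3 h.

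**Figure D3:**
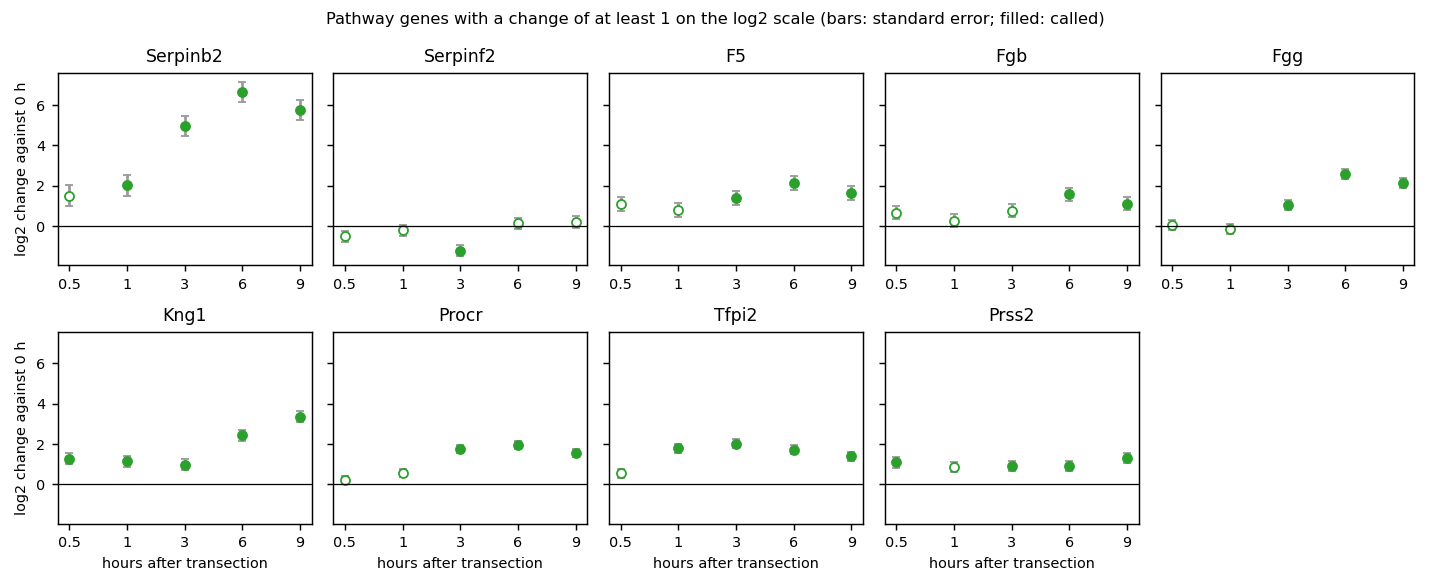
Change against 0 h in log2 units (vertical axis) at 0.5 h to 9 h of 9 pathway genes that were called in the F-test with a change of at least 1, with bars for the standard error and filled points for called changes. Procr and Tfpi2 stay above 0 h from 3 h on, and the points of Serpinb2, Serpinf2, Fgb, Fgg and Kng1 include time-points at which the probe was not well above background.

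On the plasmin side 6 of the 10 genes tested were called in the F-test, beside 36.3% of all gene names, with Serpinb2 among them. Serpinb2 (PAI-2), an inhibitor of urokinase, was not well above background on any array of 0 h, 0.5 h or 1 h and was on all arrays from 3 h on. It was at least 10.51-fold higher at 3 h than at 0 h, at least 33.5-fold at 6 h and at least 18.1-fold at 9 h (limma adjusted P = 3.2e-05, 1.35e-06 and 3.37e-06, which rest on 0 h values at background), where the dim group is set on each array to the lowest signal among probes well above background or to the probe's own if that is higher. Serpinf2, the plasmin inhibitor alpha2-antiplasmin, cleared the background on each array of 0 h, 6 h and 9 h, on none of 0.5 h, on 2 of 3 at 1 h and on 1 of 3 at 3 h, so that the size of its called fall at 3 h was not measured. That call was lost without array 2 of 0 h (adjusted P = 0.053), and with normexp background correction the sign turned. At 6 h and 9 h it differed from 0 h by 0.12 and 0.20.

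Among the clotting factors, F5, the cofactor of factor Xa, rose by 1.38 ± 0.35 log2 units at 3 h (limma adjusted P = 0.0193), by 2.14 at 6 h (adjusted P = 0.000686) and, at 9 h, by 1.63 (adjusted P = 0.00311). The call at 3 h was lost without array 3 of 0 h or array 2 of 3 h (1.12 and 0.97, adjusted P = 0.0796 and 0.0891), and with normexp F5, Fgb, Fgg, Kng1 and Prss2 were called at none of 3 h, 6 h and 9 h, whereas Serpinb2, Procr and Tfpi2 were called at each. Of the fibrinogen chains, Fgg was not well above background on any array of 0 h and was at least 3.9-fold higher at 6 h and at least 2.85-fold at 9 h (limma adjusted P = 1.18e-05 and 4.43e-05, on 0 h values at background). Fgb, well above background on 2 of 3 arrays of 0 h, on 1 of the 9 from 0.5 h to 3 h and on all of 6 h and 9 h, differed from 0 h by 1.58 ± 0.33 at 6 h (limma adjusted P = 0.00325), and it entered the test through 6 h and 9 h alone. Fga was too dim to be tested. Kng1, kininogen, was well above background on no array from 0 h to 3 h and on 2 of 3 at 6 h, and was at least 2.52-fold higher at 9 h than at 0 h. Its adjusted P-value in limma (2.01e-06) rests on 0 h values that were not well above background, and its 3 probes may bind the near-identical kininogen genes of the rat. The counts of the group were 5 higher and 1 lower (F8) of 9 tested at 6 h, beside 13.1% and 13.5% of all gene names, and 5 higher at 9 h, beside 17%. At both times 3 of the 5 were Fgb, Fgg and Kng1, selected through the times at which they were high, and the other two were F5 and F12.

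Among the anticoagulants, Procr, the endothelial receptor that presents protein C to the thrombin-thrombomodulin complex, was at 3.04, 2.52 and 2.38 on the arrays of 0 h, between 4.12 and 4.59 on those of 3 h and between 4.52 and 4.78 on those of 6 h, with no overlap. It rose by 1.75 ± 0.20 log2 units at 3 h (limma adjusted P = 6.63e-05), by 1.96 at 6 h and by 1.56 at 9 h. Tfpi2, a protease inhibitor related to Tfpi, was at -1.73, -1.34 and -1.55 at 0 h and already at -0.18, 0.47 and 0.48 at 1 h, above all arrays of 0 h. It rose by 1.79 ± 0.22 at 1 h (adjusted P = 0.000423), and by 2.01, 1.72 and 1.40 at the later times, and the calls of both genes at these times held without any 1 array. Prss2, a trypsin whose probe may bind other trypsins of the rat, rose by 1.32 ± 0.25 at 9 h (limma adjusted P = 0.0014), although its call in the F-test was lost without array 2 or 3 of 0 h (adjusted P = 0.0562 and 0.0495). F2rl3 (PAR4), the remaining receptor of the family, was not called in the F-test (limma adjusted P = 0.0969), and its contrast of 9 h was (1.76, adjusted P = 0.0112), but it cleared the background on each array at 6 h and 9 h alone and entered the test through them.

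The probes most like each member over the 18 arrays were looked up among 14939 probes of genes listed in the RefSeq table that were well above background on all arrays, as a description of shared time courses and array effects. Plaur was most like Fosl1 (Pearson r = 0.984), a member of the AP-1 factors, and Sdc4 (r = 0.983), a syndecan of the cell surface. F2rl2 was most like Csf1 (r = 0.985), the growth factor of macrophages, and Baz1a (r = 0.981). Plau was most like Nsd3 (r = 0.912). Plat was most like Dtx4 (r = 0.938) and Odc1 (r = 0.929), an enzyme of polyamine synthesis, F3 like Akr1e2 (r = 0.850) and Rnf138l1 (r = 0.843), and Thbd like Rbm39 (r = 0.840) and Pelo (r = 0.824).

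The RefSeq promoter table for GRCr8 holds 6 start sites of 5 members (Plau, Plaur, F2r, F2rl2 and 2 of Tfpi), each with 250 bases before and 50 after the start. The letters TGANTCA, a site that AP-1 factors bind, occur on either strand in 7.33% of the 33469 promoters of the table and in those of Plaur, F2r and F2rl2. The motifs TGACGTCA (CRE, 1.83% of all promoters), GCGNGGGCG (EGR, 4.98%), TTCNNNGAA (STAT, 8.87%) and that of NF-kB (7.51%) were searched as well and were found in none of the 6. The upstream bases of the 2 members with the largest rise are given with the AP-1 letters in capitals, which start 83 bases before the start site of Plaur and 129 before that of F2rl2. They are at chr1:89181113-89181362 and chr2:28706516-28706765 of GRCr8, both on the plus strand. A match of letters is a description and shows no binding.
Plaur upstream of the start: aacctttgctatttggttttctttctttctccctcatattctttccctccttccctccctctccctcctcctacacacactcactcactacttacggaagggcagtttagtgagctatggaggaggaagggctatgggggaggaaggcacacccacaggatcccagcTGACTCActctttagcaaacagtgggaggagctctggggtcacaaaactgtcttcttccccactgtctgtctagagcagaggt
F2rl2 upstream of the start: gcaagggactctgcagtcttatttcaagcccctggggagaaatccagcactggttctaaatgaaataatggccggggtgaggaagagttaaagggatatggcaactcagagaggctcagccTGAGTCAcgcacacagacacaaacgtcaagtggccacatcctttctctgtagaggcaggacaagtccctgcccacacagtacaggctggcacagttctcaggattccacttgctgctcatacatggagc

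Markers of cell types moved over the same hours. The Schwann cell sum lay between 881 and 1051 at 0 h and between 689 and 786 at 9 h, when 5 of 10 markers were lower, beside 15.9% of all gene names. Of 7 neutrophil markers 6 were called in the F-test, beside 36.3% of all gene names as for the lists that follow, and the summed linear level of the list was 1.44 to 2.42 at 0 h, 4.06 to 5.62 at 1 h, 9.48 to 23.2 at 3 h, 16.1 to 23.8 at 6 h and 19.6 to 23.2 at 9 h, with Mpo not called and Cxcr2 and Csf3r well above background on 12 and 17 of the 18 arrays. Of 8 macrophage markers 7 were called in the F-test, in both directions, with 3 higher and 1 lower (Adgre1) at 6 h and at 9 h. Their sum was 25.6 to 27.8 at 0 h, lower at 1 h (18.9 to 23.6), and then 25.6 to 38.3, 29.1 to 39.9 and 37.2 to 49.4 in order of time from 3 h on. The platelet list had 5 of 7 markers on the array, of which Ppbp was called in the F-test, with sums of 5.95 to 9.85 at 0 h, 11.1 to 12.9 at 0.5 h, 8.66 to 16.6 at 3 h, 7.22 to 31.7 at 6 h and 9.27 to 10.2 at 9 h. The red blood cell list had no marker called in the F-test, with sums of 1.99 to 12.4 at 0 h, 14.5 to 21.7 at 0.5 h, 12.7 to 25.9 at 1 h and 8.26 to 14.1 at 9 h. The endothelial sum, the list of the cells that carry Thbd, was 67.7 to 71.3 at 0 h, 59.7 to 70.2 at 3 h and 52.8 to 55.7 at 9 h, and that of fibroblasts and perineurium 1328 to 1418 at 0 h and 924 to 984 at 9 h. Skeletal muscle markers varied the most, from 101 to 1411 at 0 h and 1.03 to 127 at 9 h, and neither they nor the 6 mast cell markers were called in the F-test, although the mast cell marker Ms4a2 was lower at 6 h (-0.91, limma adjusted P = 0.0149). The part of these cells in the changes of the members was not tested, and in pieces of nerve more cells of a type and more RNA per cell cannot be told apart.

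**Figure D4:**
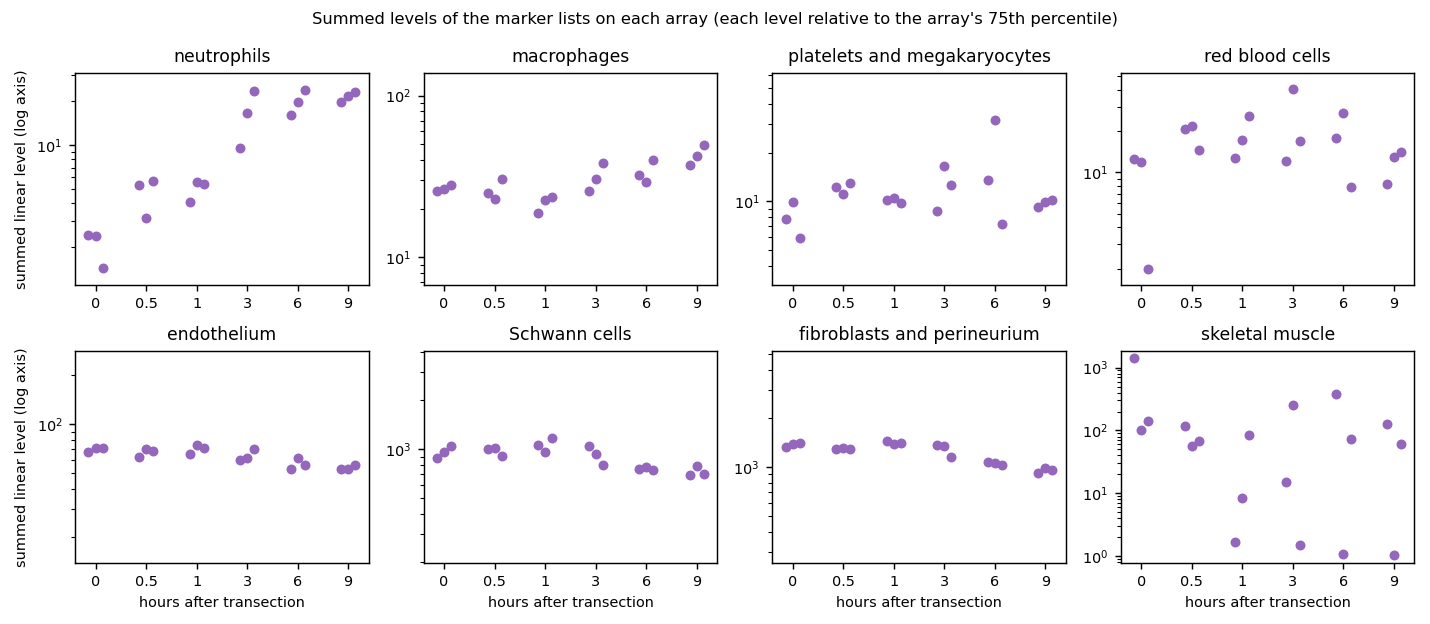
Summed linear level of the markers of 8 cell types on each of the 18 arrays (log vertical axis, each level relative to the array's 75th percentile) by hours after transection. The neutrophil sum of every array from 3 h on is above that of every earlier array, and the skeletal muscle sum is spread widely at most time-points.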

How the data were processed

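The authors deposited scanner output whose processed signal is a linear intensity with background subtracted, per the file headers by Feature Extraction 10.5.1.1, and a matrix of log2 values with the same distribution on every array, used as an alternative. Control spots and spots with outlier flags were left out, spots of 1 probe were averaged, and log2 signals were taken relative to the 75th percentile of the array. A probe was tested if well above background on all 3 arrays of a time-point, which lets a gene in through the time at which it is high. All 18 arrays entered a limma model with a coefficient per time-point. A gene counted as called if any of its probes was, and its brightest tested probe is given. Pathway genes called in the F-test with a change of at least 1 were named, and Plg, F2, Fga, F8, F12, F2rl3, Adgre1, Ms4a2 and factors VII, IX and XI after their values were seen. Some results that this rule covers and a probe sequence are not reported here. The members and lists were chosen with earlier results of these data known. The fit was tested on simulated data. Alternatives changed the background correction, scaling, filter, prior, weights, blocks, call rule and arrays. R 4.3.3, limma 3.58.1, Python 3.11.15, pandas 2.3.3 and matplotlib 3.10.9 were used.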

Additional observations from a re-analysis of the deposited data

How the results depend on the processing

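Among 159 values for single genes, leaving out each array in turn left 2682 of 2862 on the same side of the threshold. Slide as a random block moved none (0), but each slide held 1 time-point and the estimated correlation was -0.0125, so that this fit is no test of slide. Normexp had the most effect, with 48 calls lost and 1 value reversed, that of Serpinf2 at 3 h (0.82). With normexp 3 members were called over all time-points, against 0 h none (0) at 0.5 h and 2 in each contrast from 3 h on, and 1 in each later time against 1 h. The pathway genes called with it were 5 over all time-points and 1, 2, 4, 5 and 4 from 0.5 h to 9 h. At 0.5 h 0 members were called with a shift to the median, no filter or only the 6 arrays of a contrast. The fits on 6 arrays called 2 members at 3 h and 3 at 9 h, 0 from 1 h to 3 h and 2 from 1 h to 9 h, and 6 pathway genes at 3 h. No filter left 2 members from 1 h to 3 h, the trend and robust prior called 1 at 1 h, and array weights called 5 from 1 h to 6 h. Of the pathway genes, quantile normalization and the deposited matrix each called 2 at 0.5 h and 3 at 1 h, and the shift to the median 8 at 1 h. Probes well above background on all 18 arrays gave 6 at 3 h and 9 at 9 h. The cause of these changes was not tested.

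The replicate numbers were checked for pairing. Arrays of the same number had deviations that correlated from -0.261 to 0.565 (median 0.0698, 45 pairs), and arrays of other numbers from -0.519 to 0.379 (median 0.00666, 90 pairs). Since not every pair was above 0.1, the numbers were not taken to pair the arrays. With the replicate block 7 members were called over all time-points, 5 at 9 h and 1 from 3 h to 6 h, the dimmer Tfpi probe (-0.36, limma adjusted P = 0.0313), and F3 was no longer called at 9 h (adjusted P = 0.037).

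Leaving out 1 array in turn gave 4 to 8 members over all time-points. Against 0 h it gave 0 to 1 at 0.5 h and 1 h, 3 to 6 at 3 h, 4 to 5 at 6 h and 3 to 6 at 9 h. Between injured time-points it gave 2 to 3 from 1 h to 3 h, 0 to 1 from 3 h to 6 h and 2 to 4 from 1 h to 9 h. The pathway counts were 14 to 17 over all time-points, then 2 to 5, 2 to 6, 5 to 11, 10 to 13 and 10 to 15. With 3 arrays a time-point, the number of arrays and signals near background limit what could be called.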
